A study of Mus musculus with 4 samples.

Results

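Glycolysis and glucose transport in developing T cells were followed through 10 genes: the glucose transporters Slc2a1 and Slc2a3, the hexokinases Hk1 and Hk2, and Pfkp, Aldoa, Gapdh, Pgk1, Pkm and Ldha, which encode enzymes of the pathway from fructose 6-phosphate to lactate. They were chosen by name for their place in the pathway from the 32285 genes of the count tables, with earlier results of these data known. All 10 were detected in the kept cells, with between 356 (Hk2) and 141396 (Gapdh) unique molecular identifiers (UMIs, each marking 1 captured transcript). Thymocytes had been profiled by droplet single-cell RNA sequencing of transcript 3′ ends (10x Genomics Chromium) in 2 libraries of control mice, labelled Tox4;F/F, and 2 libraries of conditional knockout (cKO) mice, labelled Tox4;F/F;Lck+. Both groups carried Tox4 alleles with floxed exons 4 to 6 on a C57BL/6 background, and per the study's methods animals were gender-matched littermates, 6 to 8 weeks old. The cKO mice also carried a Cre recombinase gene under the proximal Lck promoter, which is active in T lineage cells from the DN3 stage, so the earliest thymocytes of a cKO mouse still hold intact alleles. Tox4 encodes a nuclear protein that binds DNA, and the comparison asks whether its loss went along with other levels of these genes at any stage of development.

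Glucose enters T cells through facilitative transporters of the Slc2a family and is trapped by hexokinases as glucose 6-phosphate. Phosphofructokinase commits it to glycolysis, aldolase splits the sugar, and the lower enzymes make ATP and pyruvate, which lactate dehydrogenase can turn into lactate while regenerating NAD+. Thymocytes that cycle after β-selection are known for higher glucose uptake and aerobic glycolysis than the small resting double positive (DP) cells that rearrange the T cell receptor α locus, and signalling through the receptor raises glucose metabolism again.

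The 4 tables held 57354 cells and between 42716798 and 62007453 UMIs each, of which 33411 cells with a median of 2492 to 3445 UMIs per library were kept. Mitochondrial transcripts gave over 10% of the UMIs in 48.3% and 46.1% of the cells of the libraries numbered 1, against 20.6% and 23.1% in those numbered 2. This share of cells followed the replicate number and not the genotype. Among kept cells the median mitochondrial percent was lower in both cKO libraries in the DN, DPbla, CD4SP and CD8SP stages named below. It overlapped between genotypes in DPre and DPsel, and its part in the genotype values was not tested. Between 145 and 200 cell barcodes of each library also occurred in another library. Levels are given in counts-per-million (CPM), a gene's UMIs scaled to the same total in every sum. Tox4 itself stood at 68.9 and 73.4 CPM in the control libraries and at 54.9 and 62.2 CPM in the cKO libraries over all kept cells. The reads lie at the 3′ end, outside the deleted exons, so this level does not check the deletion.

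Cells were grouped into 26 clusters built without the glycolysis genes, and 14 clusters with 28738 cells were placed in 6 stages by marker genes. The names are rebuilt from markers and stand for "X-like" cells: DN (double negative, led by Il2ra, Tcrg-C1 and Hes1), DPbla (cycling DP blasts, led by Mki67, Top2a and Pclaf), DPre (resting DP cells under rearrangement, with Rag1), DPsel (DP cells under selection, with Cd5, Egr1, Itm2a and Cd69), CD4SP (single positive, with Klf2, S1pr1 and Ccr7) and CD8SP (single positive, with Nkg7, Klf2 and Klrd1). A small DPre cluster of 121 cells was led by interferon response genes (Rsad2, Usp18, Ifit1). Of the DPsel clusters, only cluster 4 (2934 cells) was led by Cd5 and Egr1. Cluster 7 (1652 cells, with Il7r and Bcl2) and cluster 14 (733 cells, with Xcl1 and Tnfrsf9) scored next highest for the CD4SP markers. Those scores were mean log2 differences of 1.21 and 1.34, against 2.17 and 3.54 for the DPsel markers. DPsel is thus not taken to hold DP cells alone. Klf2, S1pr1 and Ccr7 stood in both single positive marker lists, and CD8SP scored 2.03 for the CD4SP list against 2.97 for its own. CD4SP scored 1.40 for the CD8SP list against 3.01 for its own. In clusters built with the pathway genes, CD8SP held 773 cells rather than 924 and gamma-delta T-like cells 242 rather than 83. CD8SP may thus hold some cells of that kind. Cycling was read from Mki67, which stood at 911 to 1100 CPM in DPbla and at 18.4 to 40.8 CPM in DPre. A cluster of 1703 cells with cycling markers and a median of 844 UMIs was kept out of DPbla for its low UMI totals. It held 3.22% and 3.54% of the kept cells in the control libraries and 7.41% and 5.66% in the cKO libraries. Counts were summed per library and stage, so n is 2 libraries per genotype and 4 libraries per stage. Since 1 UMI stands for 1 transcript whatever its length, CPM can be set side by side between genes, but Gapdh, Aldoa, Ldha and Pgk1 have processed pseudogenes with near-identical sequence, and their absolute levels are uncertain for that reason.

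The promoters of 9 of the 10 genes were found in the RefSeq table for GRCm38.p6, and Slc2a3 is named only. The 250 bases before the start of transcription are shown for Ldha, Pgk1 and Gapdh, which moved together between cycling and resting DP cells, and for Aldoa, which moved the other way in CPM but not in UMIs per cell. They were chosen after these values were known. Capitals mark ACGTG or its reverse complement CACGT, the core of the element bound by hypoxia-inducible factors. The stretches are chr7:46845554-46845803 on the plus strand for Ldha, chrX:106186850-106187099 on the plus strand for Pgk1, chr6:125165774-125166023 on the minus strand for Gapdh and chr7:126800448-126800697 on the minus strand for Aldoa, each written 5′ to 3′ along its gene.
Ldha: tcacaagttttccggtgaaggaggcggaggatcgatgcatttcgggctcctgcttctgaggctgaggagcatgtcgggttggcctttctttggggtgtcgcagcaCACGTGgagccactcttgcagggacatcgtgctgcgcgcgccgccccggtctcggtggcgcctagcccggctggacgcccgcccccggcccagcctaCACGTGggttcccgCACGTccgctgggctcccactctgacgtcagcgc
Pgk1: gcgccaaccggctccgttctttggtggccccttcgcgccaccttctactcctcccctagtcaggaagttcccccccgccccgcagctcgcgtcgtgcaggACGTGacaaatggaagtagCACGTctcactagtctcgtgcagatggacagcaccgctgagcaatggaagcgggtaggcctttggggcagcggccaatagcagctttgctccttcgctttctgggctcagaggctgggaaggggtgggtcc
Gapdh: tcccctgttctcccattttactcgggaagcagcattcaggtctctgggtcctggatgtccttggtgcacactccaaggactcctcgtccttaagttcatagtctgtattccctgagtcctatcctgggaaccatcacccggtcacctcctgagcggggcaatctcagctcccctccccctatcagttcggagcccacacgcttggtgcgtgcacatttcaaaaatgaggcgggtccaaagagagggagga
Aldoa: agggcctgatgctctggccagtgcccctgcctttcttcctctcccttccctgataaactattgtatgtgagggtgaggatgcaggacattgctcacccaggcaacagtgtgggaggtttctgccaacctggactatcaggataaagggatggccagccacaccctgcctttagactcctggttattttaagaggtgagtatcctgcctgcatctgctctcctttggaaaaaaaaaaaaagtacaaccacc
The Pgk1 stretch ends directly before the GENCODE gene, which spans 106187100 to 106203699 on chromosome X. The other stretches precede RefSeq starts that lie inside the GENCODE spans of Ldha (chromosome 7, 46841475 to 46855627, plus strand), Gapdh (chromosome 6, 125161715 to 125166467, minus strand) and Aldoa (chromosome 7, 126795234 to 126800751, minus strand). Counted on both strands, the Ldha stretch held 5 matches, of which 4 came from 2 copies of CACGTG, a palindrome that contains both forms and is bound by MYC and other E-box factors. The Pgk1 stretch held 2 matches, and the stretches of Gapdh and Aldoa held 0. Over the full windows of 300 bases, which add 50 bases after the start, ACGTG was found in 5 of 9 first windows (Ldha, Pgk1, Slc2a1, Hk2 and Gapdh, the last with its match after the start). It was found in 19.6% of all 32851 windows of the table, which holds later starts of a gene as well as first ones. Among later windows of the 9 genes, Aldoa windows 2 and 3 held 1 match each, and window 2 of Hk1 and of Pkm held 2. Window 2 of Ldha held 0. CACGTG was found in 1 of 9 first windows (Ldha) and in 7.15% of all windows, and GCGTG, the other form of the same core, in 4 of 9 and in 32.4%. These are matches of letters and no measure of binding.

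The 10 genes together made up between 1374 and 2670 CPM of a stage's UMIs, and Gapdh alone gave between 35.9% and 66.0% of that sum. The sum lay between 2483 and 2625 CPM in DPbla and between 2294 and 2670 CPM in DPsel, against 1374 to 1586 CPM in DPre, where it was lowest. The stage with the highest mean differed between genes: DPsel for Slc2a1, Slc2a3, Pfkp and Aldoa, DPbla for Gapdh and Pgk1, CD4SP for Hk1 and Pkm, CD8SP for Ldha and DN for Hk2. The mean of the highest stage was 7.14 times that of the lowest for Hk2, 5.11 times for Pfkp, 3.92 times for Slc2a3 and 3.77 times for Aldoa, but 1.58 times for Hk1 and 1.61 times for Pgk1.

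**Figure D1:**
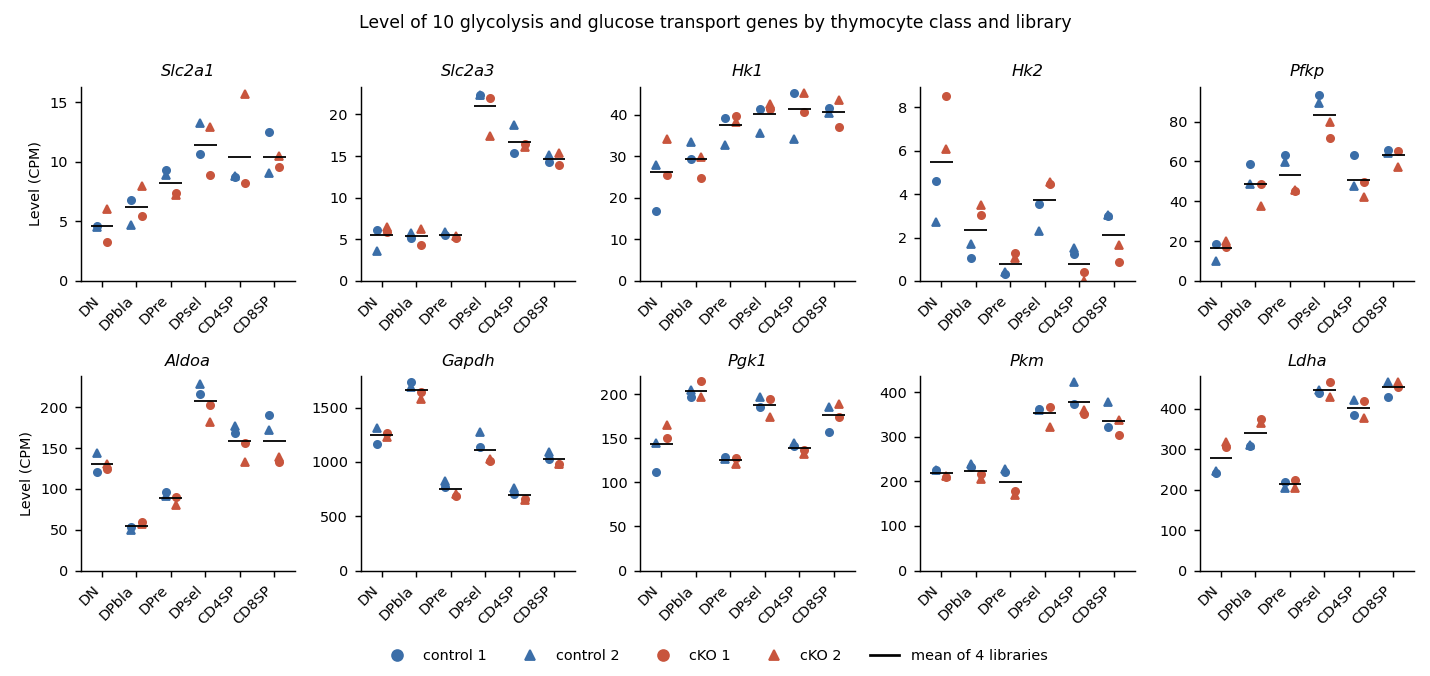
Level of each of the 10 genes in CPM in the 6 stages, with 1 point per library and the mean of 4 libraries as a line. Gapdh reaches a mean of 1659 CPM in DPbla and 695.5 CPM in CD4SP, while Hk2 stays under 10 CPM in every stage.

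Both glucose transporters were low. Slc2a1, the widely used basal transporter GLUT1, had a mean of 4.61 ± 1.14 CPM (SD, n = 4) in DN and of 11.4 ± 2.04 CPM in DPsel, and every pair of neighbours in its order of stages overlapped between libraries. Slc2a3, the high-affinity transporter GLUT3, fell into a low and a high set of stages. Its mean was 5.52 ± 1.29 CPM in DN, 5.35 ± 0.80 CPM in DPbla and 5.47 ± 0.30 CPM in DPre, 3 stages that overlapped. The 4 libraries reached 22.4, 22.3, 22.0 and 17.4 CPM in DPsel (control 1, control 2, cKO 1, cKO 2, the order used throughout), above every library of the earlier stages. CD4SP (16.7 ± 1.47 CPM) and CD8SP (14.7 ± 0.69 CPM) stayed in the high set, and only the step between CD8SP and DN separated neighbours in its order.

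Hk1, the hexokinase of most resting tissues, had the smallest ratio of highest to lowest stage mean, from 26.1 ± 7.14 CPM in DN to 41.3 ± 5.29 CPM in CD4SP. All neighbours in its order overlapped. Single libraries ran from 16.9 CPM in DN to 45.3 CPM in CD4SP. Hk2, the inducible hexokinase of growing and activated cells, was rare. It had 4.6, 2.70, 8.52 and 6.06 CPM in DN from 3 to 16 UMIs per library, and 3.55, 2.31, 4.45 and 4.58 CPM in DPsel. In DPbla the libraries held 1.07, 1.70, 3.03 and 3.49 CPM, and in DPre 0.329, 0.391, 1.28 and 1.06 CPM. The ratio of DPbla to DPre was between 2.36 and 4.36 in each library, whereas neighbours in its order of stages overlapped. Hk2 was higher outside the T lineage than in any of the 6 stages, at 23.3 ± 9.20 CPM (SD, n = 4) in MPS-like cells (macrophages and related phagocytes). The summed markers of those cells stood in DPre at 1.69% to 2.37% of their level in MPS-like cells, and Hk2 at that share would be 0.193 to 0.563 CPM. The Hk2 levels of both control libraries in DPre lay inside that range and those of both cKO libraries above it. That range pools the libraries and rests on 6 to 16 Hk2 UMIs per library in MPS-like cells. The source of the Hk2 UMIs in DPre was not tested in either genotype.

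Pfkp, the platelet form of phosphofructokinase, stood at 18.4, 9.91, 17.1 and 20.1 CPM in DN and at 58.7, 48.5, 48.9 and 37.6 CPM in DPbla. Every DPbla library was above every DN library, and Pfkp was highest in DPsel at a mean of 83.5 ± 9.77 CPM, without overlap with the next stage. Aldoa, the aldolase of muscle and most growing cells, had the opposite low point. It fell from 121, 144, 125 and 130 CPM in DN to 53.5, 50.2, 59.5 and 57.2 CPM in DPbla, which was its lowest stage. It stood at 96.1, 91.8, 90.1 and 80.1 CPM in DPre and at 208 ± 19.98 CPM in DPsel, and the libraries of DPbla, DPre and DPsel did not overlap.

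Gapdh, which makes NADH at the first energy-yielding step, had 1168, 1316, 1269 and 1232 CPM in DN and 1733, 1689, 1641 and 1576 CPM in DPbla. In DPre it had 772, 826, 687 and 702 CPM, so that its CPM was lower in resting than in cycling DP cells in all 4 libraries. Pgk1, which follows Gapdh and forms ATP, had 197, 204, 215 and 197 CPM in DPbla against 129, 127, 128 and 121 CPM in DPre, also without overlap. Its DPre level was its lowest, with a spread of 3.72 CPM (SD) over the libraries.

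Pkm encodes both forms of pyruvate kinase M, which 3′ counts do not tell apart. Its levels formed a low set, with means of 218 ± 8.66 CPM in DN, 223 ± 15.6 CPM in DPbla and 199 ± 29.7 CPM in DPre, and a high set of 353 ± 20.5 CPM in DPsel, 378 ± 31.8 CPM in CD4SP and 336 ± 32.0 CPM in CD8SP. Ldha, the A chain of lactate dehydrogenase that favours lactate formation, had 220, 206, 224 and 205 CPM in DPre, its lowest stage. It reached 308, 312, 376 and 364 CPM in DPbla and 440, 448, 466 and 430 CPM in DPsel. Ldha was thus higher both before and after the resting stage, and its highest means, 455 ± 17.3 CPM in CD8SP and 446 ± 15.01 CPM in DPsel, overlapped.

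Stages were compared within libraries by edgeR's quasi-likelihood test over all genes, with 24 sums, library as a block, TMM scaling and Benjamini-Hochberg adjustment. Calls are differences with an adjusted p under 0.05. Of 11151 genes tested, 60.2% were called between DPbla and DN, 29.8% higher and 30.4% lower, and 6 of the 10 genes were called, 4 higher and 2 lower, a share near that background. Pfkp was higher in DPbla by 1.47 on the log2 scale (SE 0.15, adjusted p = 3.93e-10), Pgk1 by 0.51, Gapdh by 0.47 and Ldha by 0.33 (adjusted p = 0.000333 for Ldha). Aldoa was lower, with a log2 fold change of -1.18 (SE 0.10, adjusted p = 3.74e-12), and so was Hk2 with -1.09 (adjusted p = 0.0172). The Hk2 call was lost without cKO 1, at a log2 fold change of -0.91. It was also lost at Leiden resolution 1.5 (-0.77), with the low-UMI cluster kept in DPbla (-0.82) and in control libraries alone (-1.15), and Ldha was not called in UMIs per cell (0.23). Library cKO 1 stood apart in DN, where the summed markers of red cell precursors were 475 CPM against 3.07 to 18.9 CPM in the other libraries. The median over the 10 genes was 0.21, and over all genes -0.02.

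Between resting and cycling DP cells 73.6% of all genes were called, 37.9% higher and 35.6% lower in DPre, and 6 of the 10 genes were called, 1 higher and 5 lower. Gapdh, Pgk1, Ldha, Pkm and Hk2 fell in DPre. The log2 fold change was -1.44 for Gapdh (SE 0.05, adjusted p = 9.90e-22), -0.97 for Pgk1 (SE 0.06, adjusted p = 8.12e-16), -0.96 for Ldha (SE 0.07, adjusted p = 1.39e-14), -0.46 for Pkm (SE 0.06, adjusted p = 1.77e-08) and -1.92 for Hk2 (SE 0.35, adjusted p = 1.38e-05). Aldoa rose by 0.39 (SE 0.08, adjusted p = 6.41e-05). Slc2a1 (0.08), Slc2a3 (-0.28), Hk1 (0.07) and Pfkp (-0.13) did not pass the test. The median log2 fold change was -0.37 over the 10 genes and 0.05 over all genes. These folds follow TMM scaling, which put them below the log2 ratio of CPM by 0.29 in the median over the 10 genes. With library totals in place of TMM factors the median over all genes was 0.34, and 68.8% of calls were higher in DPre rather than 51.5%. Slc2a1 (0.37) and Hk1 (0.36) were called higher as well, where 79% of all genes were called, while the 6 calls kept their direction.

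**Figure D2:**
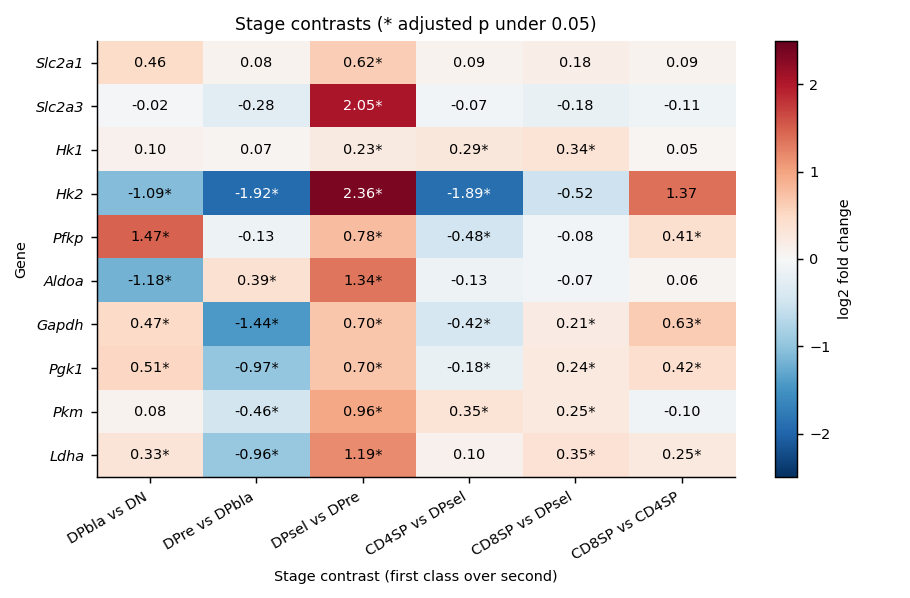
Log2 fold change of each gene in the 6 stage contrasts, from edgeR on 24 sums with TMM scaling. Gapdh, Pgk1, Ldha, Pkm and Hk2 lie below 0 and Aldoa above 0 between DPre and DPbla, and all 10 genes lie above 0 between DPsel and DPre.

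Cycling cells hold more RNA, and the scale decides how the genes read. A DPbla cell had a mean of 8262 to 9988 UMIs and a DPre cell 2356 to 3190 UMIs. On the scale of UMIs per cell all 10 genes were higher in DPbla in every library. The mean ratio of DPbla to DPre was 7.24 for Gapdh, 5.25 for Pgk1, 5.2 for Ldha, 3.68 for Pkm and 10.7 for Hk2. For Aldoa it was 2.02 per cell against 0.620 in CPM, so the direction of Aldoa depended on the scale. With the number of cells as the offset, edgeR called all 10 genes lower in DPre, with -1.03 for Aldoa on the log2 scale. It called 91.7% of all 11151 genes in that fit, 10026 of them lower. On that scale 1.99% of all calls were higher in DPre, and the median over all genes was -1.37.

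**Figure D3:**
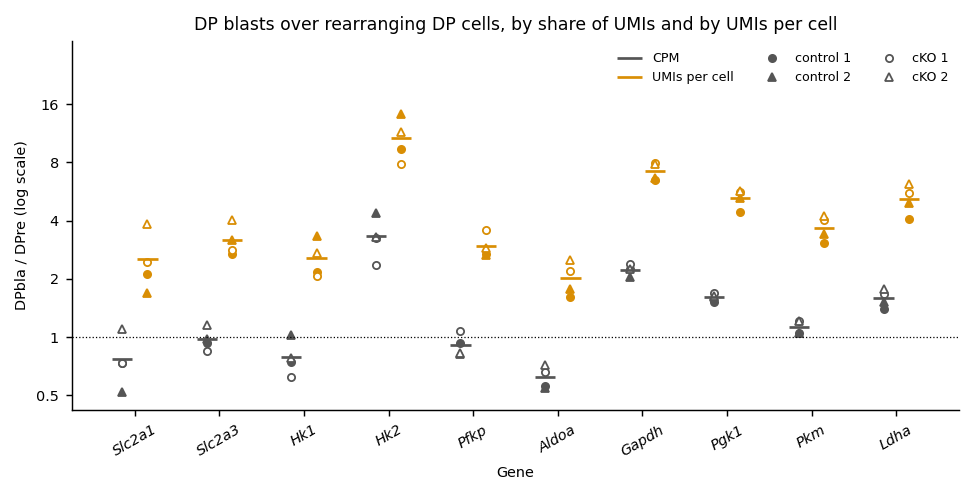
Ratio of DPbla to DPre for each gene (log axis) in CPM (grey) and in UMIs per cell (orange), with 1 point per library (filled, control; open, cKO) and the mean ratio as a line. In UMIs per cell all 10 genes lie above 1 in every library, whereas in CPM Aldoa lies between 0.547 and 0.714.

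The 3 clusters that make up DPbla differed in these genes. Cluster 9, led by Hells, Cdc6 and other genes of DNA replication, had 439 CPM of Ldha over all libraries, cluster 8 (Mki67, Top2a) 300 CPM and cluster 13 (Cenpf, Cdc20, genes of mitosis) 270 CPM. The lowest library of cluster 9 (383 CPM) was above the highest library of cluster 8 (322 CPM). Hk2 showed the same order, with 5.61 CPM in cluster 9, 0.929 CPM in cluster 8 and 0.394 CPM in cluster 13, and no overlap between clusters 9 and 8. Aldoa was also highest in cluster 9, at 73.8 CPM against 45.7 and 41.8 CPM, and Gapdh was lowest in cluster 13, at 1223 CPM against 1814 CPM in cluster 9 and 1646 CPM in cluster 8. Cluster 9 made up 29.0% and 32.2% of DPbla cells in the control libraries and 36.7% and 39.1% in the cKO libraries, and the part of this difference in the genotype values of Hk2, Ldha and Aldoa was not tested.

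From DPre to DPsel all 10 genes passed the test as higher, where 59.2% of all genes were called, 31.8% higher and 27.4% lower. The largest changes were those of Hk2 (log2 fold change 2.36, SE 0.35, adjusted p = 7.51e-07), Slc2a3 (2.05, SE 0.12, adjusted p = 3.77e-16), Aldoa (1.34, SE 0.07) and Ldha (1.19, SE 0.07). This Hk2 fold, like that between DPre and DPbla, rests on 3 to 15 UMIs per library in DPre. The DPre levels of both control libraries lay inside the range given above for the share of MPS markers, so the size of these folds is uncertain. Pkm rose by 0.96, Pfkp by 0.78, Pgk1 and Gapdh by 0.70, Slc2a1 by 0.62 and Hk1 by 0.23 (SE 0.09, adjusted p = 0.0215). The median was 0.87 over the 10 genes and 0.02 over all genes. The Hk1 call was the least stable and held in 8 of 16 alternatives. It was lost without cKO 2 (0.21), with library totals (0.11), by DESeq2 (0.21) and under 5 other settings. Slc2a1 was lost at a mitochondrial limit of 5% (0.65). With library totals 39.4% of all calls were higher in DPsel rather than 53.7%, and the median over all genes was -0.11. The other 9 genes were still called higher, where 62.3% of all genes were called.

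The clusters of DPsel were not alike either. Cluster 7, with Il7r, Bcl2 and Itm2a, had 463 CPM of Pkm and cluster 14, with Nr4a1, Tnfrsf9 and Xcl1, 421 CPM, against 222 CPM in cluster 4 (Cd5, Egr1, Cd69), and no library of cluster 4 reached those of the others. Hk2 was at 9.07 CPM in cluster 14, with 5.34 to 13.3 CPM in its libraries, and at 2.71 CPM in cluster 4 and 2.0 CPM in cluster 7. Pfkp was highest in cluster 4, with 104 CPM in cluster 4 against 67.8 CPM in cluster 7 and 69.7 CPM in cluster 14. Pkm in cluster 4 stood at the level of cluster 1, the largest of DPre (222 CPM in both), so the higher Pkm of DPsel was that of clusters 7 and 14. Ldha (396 against 211 CPM), Gapdh, Aldoa, Pgk1, Pfkp and Slc2a3 were higher in cluster 4 than in cluster 1 without overlap. Slc2a1, Hk1 and Hk2 overlapped between these clusters. These are levels over all libraries, given as a description.

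Single positive cells were compared with DPsel and with each other. In CD4SP, where 38% of all genes were called against DPsel, 20% higher and 18% lower, Gapdh (-0.42, SE 0.05, adjusted p = 9.87e-08), Pfkp (-0.48), Hk2 (-1.89) and Pgk1 (-0.18) fell and Pkm (0.35, SE 0.06, adjusted p = 1.54e-05) and Hk1 (0.29) rose. Leaving out cKO 2 left 3 of these 6 calls, Gapdh, Pfkp and Pkm, with -1.37 for Hk2, 0.28 for Hk1 and -0.18 for Pgk1. Hk1 was also lost without control 1 (0.26) or cKO 1 (0.31), and Pgk1 without control 2 (-0.19) or cKO 1 (-0.15), and over 16 alternatives Hk1 was called in 5 and Pgk1 in 10. With library totals 0 of the 10 genes were called higher and 7 were called lower, where 53.9% of all genes were called, 1253 higher and 4755 lower. On that scale the median over all genes was -0.26 and 20.9% of all calls were higher rather than 52.6%.

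In CD8SP, where 47.9% of all genes were called against DPsel, 28.2% higher and 19.7% lower, Ldha (0.35, SE 0.07, adjusted p = 6.64e-05), Hk1 (0.34), Pkm (0.25), Pgk1 (0.24) and Gapdh (0.21, SE 0.05, adjusted p = 0.00201) were called higher. The direction of 3 of them depended on the scaling. Mean levels were 1022 CPM in CD8SP and 1112 CPM in DPsel for Gapdh, 176 and 187 CPM for Pgk1, and 336 and 353 CPM for Pkm, and with library totals their log2 fold changes were -0.12, -0.09 and -0.07. On that scale the median over all genes was -0.28, and 25% of all calls were higher in CD8SP rather than 58.8%. Of the 10 genes 0 were called higher and 4 lower, where 59.2% of all genes were called. CD8SP cells held a mean of 6751 to 9764 UMIs and DPsel cells 3323 to 4862 UMIs. In UMIs per cell 9 of the 10 genes were called higher in CD8SP, as were 95.6% of all calls. On that scale 77.7% of all genes were called, 8286 of 11151 higher. Hk1 lost its call without control 2 (0.28) and kept it in 8 of 16 alternatives. With no filter on low counts Ldha was called higher (0.22) and Aldoa lower (-0.20), where 26.6% of all genes were called. At Leiden resolution 1.5 Ldha and Pkm were called (38.3% of all genes) and in control libraries alone Ldha (35% of all genes), with values for Gapdh of 0.08, 0.01 and 0.06 under these 3 settings. Ldha was thus the one gene called higher under each of the 3.

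Between the single positive stages 32.4% of all genes were called, 19.2% higher and 13.2% lower in CD8SP, and 4 of the 10 were higher: Gapdh (0.63, SE 0.06, adjusted p = 1.27e-10), Pgk1 (0.42), Pfkp (0.41) and Ldha (0.25, SE 0.07, adjusted p = 0.00598). Gapdh had 707, 760, 662 and 653 CPM in CD4SP and 1030, 1092, 985 and 982 CPM in CD8SP, with no overlap. The calls of these 4 genes kept their direction with library totals, which turned 59.4% of all calls being higher into 46.8% and added Pkm as lower (-0.17). In UMIs per cell 66.1% of all genes were called, 98% of these calls were higher in CD8SP, and so were all 10 genes. Mki67 stood at 61.9 to 194 CPM in CD8SP, against 13.8 to 23.7 CPM in CD4SP and 13.9 to 32.0 CPM in DPsel. The part of cycling cells in the contrasts of CD8SP with CD4SP and DPsel was not tested.

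In the fit without the replicate number as a block, 0 of the 10 genes were called between cKO and control in any stage by edgeR's quasi-likelihood test with Benjamini-Hochberg adjustment, and 0 by DESeq2. The labels do not say whether equal numbers mark a pair of mice, and a fit with the number as a block does call members, at adjusted p between 0.00224 and 0.0471. It called Hk2 and Ldha higher in DPbla, Hk2 higher and Pkm and Pfkp lower in DPre, and Gapdh lower in DPsel, and it called 9.92%, 9.18% and 2.98% of all genes in those stages. It also called Ldha in the test of the difference between DPbla and DPre, with 1.5% of all genes. Without the block the called share of all genes was 2.73% for DPbla and 1.94% for DPre, 0.308% for DPsel, 0.256% for CD4SP, 0.124% for DN and 0% for CD8SP. By DESeq2 it was 1.73% for DPbla, 1.54% for DPre, 0.177% for DPsel, 0.117% for CD4SP, 0.169% for DN and 0% for CD8SP. At an unadjusted p under 0.05 there were 3 of 10 genes in DPre, where 14.9% of all genes passed that threshold, 2 of 10 in DPbla (15.6%) and 1 each in DN (8.79%), DPsel (8.93%), CD4SP (7.77%) and CD8SP (6.83%). With library totals in place of TMM factors 52.8% of all calls in DPbla were higher in cKO rather than 63.5%, and 47.3% in DPre rather than 59.9%. In DPsel 100% of 2 calls were higher rather than 69.7% of 33. The 10 genes still gave 0 calls, where 2.36%, 1.43% and 0.0187% of all genes were called in these stages. With 2 libraries against 2, a p that misses the threshold does not show that levels were alike, and the values of each gene are given for that reason.

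**Figure D4:**
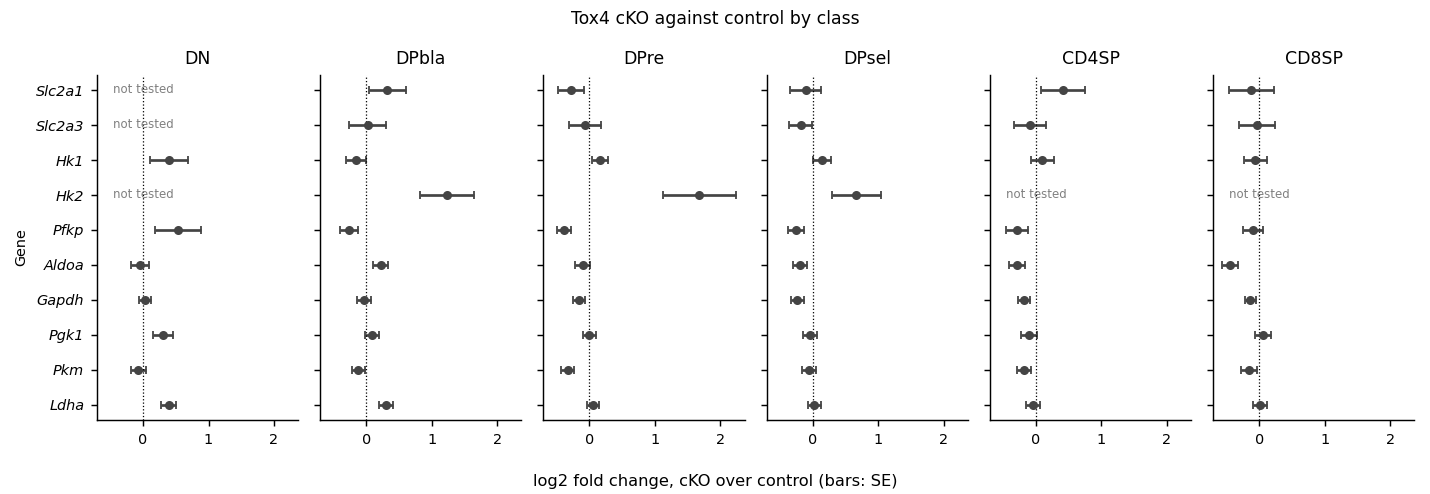
Log2 fold change of cKO over control for each gene in the 6 stages, with standard errors, from edgeR on 2 against 2 libraries. No value passed the test in this fit, which has no replicate block. Hk2 lies furthest above 0 in DPre (1.67) and DPbla (1.24), and Pfkp (-0.39) and Pkm (-0.33) lie below 0 in DPre. Genes filtered out for low counts are marked as not tested.

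Hk2 had the largest fold changes of the members tested in DPbla, DPre and DPsel. In DPbla it was at 1.07 and 1.70 CPM in control and at 3.03 and 3.49 CPM in cKO, from 5 to 40 UMIs per library, a log2 fold change of 1.24 (SE 0.41, adjusted p = 0.135, edgeR quasi-likelihood test). In DPre the change was 1.67 (SE 0.56, adjusted p = 0.151) from 3 and 5 UMIs in control and 12 and 15 UMIs in cKO. Both cKO libraries also lay above both controls in DPsel (0.67, adjusted p = 0.666), while in CD4SP and CD8SP, where Hk2 had 0 to 6 UMIs per library and was not tested, both cKO libraries lay below. DPre cells of the cKO libraries also held more Mki67, at 35.6 and 40.8 CPM against 26.7 and 18.4 CPM in control, and its part in the Hk2 value was not tested. Within DPbla Hk2 in cluster 9 had 2.78 and 3.24 CPM in control and 6.69 and 6.76 CPM in cKO, with a log2 fold change of 1.18 (SE 0.46, adjusted p = 0.238). In cluster 8, the cluster with most cells, the genotypes overlapped, with 0.488 and 1.23 CPM in control and 0.807 and 1.01 CPM in cKO, and Hk2 had too few counts to be tested in clusters 8 and 13.

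Ldha followed in the early stages. In DN the control libraries held 241 and 246 CPM and the cKO libraries 307 and 319 CPM, a log2 fold change of 0.39 (SE 0.11, adjusted p = 0.257). Without cKO 1, the library with red cell markers in DN, it was 0.42 (adjusted p = 0.449, within 0.106 to 0.672 over the alternatives other than the replicate block). DN cells of the cKO libraries also held more Mki67, at 129 and 102 CPM against 53.6 and 42.4 CPM in control. Their median mitochondrial percent was lower, at 5.90% and 6.06% against 7.14% and 7.26%. The part of either in the Ldha value was not tested. In DPbla the Ldha values were 308 and 312 CPM against 376 and 364 CPM, a change of 0.30 (SE 0.10, adjusted p = 0.132). Genotypes did not overlap in either stage, but from DPre on Ldha had log2 fold changes between -0.05 and 0.05 and its libraries overlapped. Within clusters 8, 9 and 13 of DPbla the change was 0.24, 0.28 and 0.06.

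In DPre 6 of the 10 genes had both cKO libraries below both controls and 1 above, where 28.5% and 18.4% of all genes tested did. Pkm stood at 221 and 228 CPM in control and at 178 and 169 CPM in cKO (log2 fold change -0.33, SE 0.10, adjusted p = 0.0944). Pfkp stood at 63.1 and 59.5 CPM in control and at 45.2 and 45.7 CPM in cKO (-0.39, SE 0.11, adjusted p = 0.0875). Both p-values are from the fit without the replicate block, and with the block both genes were called. Of the members, Pkm was called with no filter on low counts, at -0.34 (adjusted p = 0.0498, the lowest of a range to 0.396 over the alternatives other than the replicate block), where 3.09% of all genes were called rather than 1.94%. Slc2a1, Slc2a3, Aldoa and Gapdh were the others below, with log2 fold changes between -0.28 and -0.07.

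The makeup of DPre differed between genotypes as well. Cluster 1, which had the highest Pkm (222 CPM over all libraries, against 194 in cluster 2 and 172 in cluster 3) and Gapdh (815 against 726 and 684 CPM) of its 3 large clusters, made up 46.8% and 48.5% of DPre cells in control and 40.4% and 39.8% in cKO. Within each of clusters 1, 2 and 3 both cKO libraries lay below both controls for Pkm, Pfkp, Gapdh and Slc2a1. Pkm had 245 and 255 CPM in control and 201 and 183 CPM in cKO in cluster 1, 210 and 226 against 172 and 172 CPM in cluster 2, and 196 and 187 against 163 and 150 CPM in cluster 3. Aldoa and Slc2a3 lay below in cluster 2 alone of the 3, and Slc2a3 lay above in cluster 3. In DPre the summed red cell markers were 20.2 and 16.7 CPM in control and 28.1 and 42.3 CPM in cKO, and the summed MPS markers 247 and 237 CPM and 255 and 262 CPM. Neither these nor Mki67 overlapped between genotypes, and their part in the DPre values, those of Ldhb and Eno3 included, was not tested.

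In DPbla 3 members lay above (Hk2, Aldoa and Ldha) and 2 below (Gapdh and Pkm), where 17.9% and 28.6% of all genes did. The summed red cell markers there were 11.5 and 8.06 CPM in control and 13.9 and 14.6 CPM in cKO. The median mitochondrial percent was 5.199% and 5.736% in control and 4.665% and 5.073% in cKO. Their part in the DPbla values was not tested. In DN 2 of 7 tested members lay above (Pgk1 and Ldha) and 1 below (Pkm), against 17.3% and 21.5%. In DPsel Hk2 lay above and Slc2a3, Pfkp, Aldoa and Gapdh below, against 18.2% and 20.6%, with Gapdh at 1136 and 1275 CPM in control and 1008 and 1027 CPM in cKO (-0.23, SE 0.09, adjusted p = 0.443). In DPsel Mki67 stood at 18.6 and 13.9 CPM in control and 23.4 and 32.0 CPM in cKO, and the summed red cell markers at 23.3 and 14.5 CPM and at 61.8 and 34.1 CPM, and their part in the DPsel values was not tested. In CD4SP 0 of 9 tested members lay above and Aldoa, Gapdh, Pgk1 and Pkm lay below, where 21% of all genes lay above and 16.4% below.

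In CD8SP Aldoa and Gapdh lay below and 0 of 9 above, against 16.8% and 20.7% of all genes. Aldoa had 191 and 172 CPM in control and 133 and 139 CPM in cKO, a log2 fold change of -0.44 (SE 0.12, adjusted p = 0.370). CD8SP cells of the cKO libraries also held more Mki67, a gene of cycling cells, with 194 and 160 CPM against 61.9 and 104 CPM in control. The summed MPS markers were higher as well, at 239 and 305 CPM in cKO against 164 and 173 CPM in control, and in CD4SP at 169 and 168 CPM against 127 and 125 CPM. The red cell markers were at 16.6 and 20.9 CPM in cKO and 9.53 and 5.54 CPM in control in CD8SP, and at 17.7 and 29.2 CPM against 10.4 and 12.6 CPM in CD4SP. The part of these cells in the values of CD8SP and CD4SP was not tested.

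Whether the effect of the cKO differed between cycling and resting DP cells was tested as an interaction over all genes. It was called for 0 of the 10 genes by edgeR's quasi-likelihood test, and for 0.314% of all genes, in the fit without the replicate block, which changes the call of Ldha. At an unadjusted p under 0.05 there were 5 of the 10, and 8.65% of all genes. Ldha (0.25 more in DPbla on the log2 scale, SE 0.08, adjusted p = 0.241), Aldoa (0.33, SE 0.11, adjusted p = 0.264) and Pkm (0.22, SE 0.09, adjusted p = 0.424) had the smallest p-values.

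The hexokinase pair was also read as a share, which does not depend on scaling. Hk2 gave 3.52% of Hk1 and Hk2 UMIs in DPbla of control 1 (exact binomial 95% interval 1.15% to 8.03%) and 4.85% in control 2 (2.44% to 8.51%), against 10.9% in cKO 1 (7.16% to 15.6%) and 10.5% in cKO 2 (7.63% to 14.1%). In DPre the share was 0.836% and 1.18% in control and 3.13% and 2.70% in cKO. In CD8SP it was 6.67% and 6.98% in control and 2.30% and 3.66% in cKO. An exact two-sided permutation test over 2 against 2 libraries gave p = 0.333 in each of these stages, the smallest it can give. At a mitochondrial limit of 5% the mean difference in DPbla went from 6.51 to 1.99 percentage points, in DPre from 1.91 to 1.23, and in DPsel from 2.72 to -2.51. The share of Slc2a1 in both transporters was 58.1% to 61.6% on average in DPre and 34.7% to 35.7% in DPsel, and the genotypes overlapped in DPbla, DPsel, CD4SP and CD8SP but not in DPre, where cKO was lower by 3.50 points. The intervals cover counting error only.

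Among 45 other genes of the pathway, of which between 21 and 28 were tested per stage, 3 were called between cKO and control, 2 of 24 tested in DPbla, 2 of 27 in DPre and 1 of 28 in DPsel, where 2.73%, 1.94% and 0.308% of all genes were called. Ldhb, the B chain of lactate dehydrogenase that favours pyruvate formation, was lower in 3 stages. In DPbla it had 429 and 349 CPM in control against 287 and 219 CPM in cKO cells, a log2 fold change of -0.57 (SE 0.13, adjusted p = 0.0224, edgeR quasi-likelihood test). In DPre it had 870 and 895 CPM in control and 673 and 599 CPM in cKO (-0.43, SE 0.09, adjusted p = 0.0283), and in DPsel 456 and 496 CPM in control and 322 and 346 CPM in cKO, where the log2 fold change was -0.50 (SE 0.10, adjusted p = 0.0498). In DN, CD4SP and CD8SP it was not called, with -0.52, -0.49 and -0.51, and both cKO libraries lay below both controls in all 6 stages. The call was lost without control 1 (-0.44) or cKO 2 (-0.39) in DPbla, without control 1 (-0.47), control 2 (-0.40) or cKO 2 (-0.34) in DPre, and without control 2 (-0.43) in DPsel. Without cKO 1 Ldhb was called in DN as well (-0.71, adjusted p = 0.0189, the lowest of a range to 0.827 over the alternatives other than the replicate block), and over those alternatives it was called in 2 of 11 in DN, 1 of 12 in CD8SP and 0 of 12 in CD4SP.

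Bpgm, which makes 2,3-bisphosphoglycerate and is abundant in red cells, was lower in DPbla, with 48.6 and 53.8 CPM in control and 32.7 and 34.8 CPM in cKO (log2 fold change -0.56, SE 0.13, adjusted p = 0.0248). The summed red cell markers in DPbla were 11.5 and 8.06 CPM in control and 13.9 and 14.6 CPM in cKO, and their part in the Bpgm value was not tested. Bpgm was not called without control 2 (-0.44) or by DESeq2. Eno3, the muscle form of enolase, was higher in DPre, with 4.17 and 3.36 CPM in control and 8.55 and 10.2 CPM in cKO (1.37, SE 0.24, adjusted p = 0.00795), and not called in DPbla, where it had 2.56 and 3.41 CPM against 6.18 and 6.46 CPM (1.10, adjusted p = 0.0562). Over the alternatives other than the replicate block Eno3 was called in DPbla in 3 of 13, and Bpgm in DPre in 1 of 12. The medians over the other pathway genes tested were between -0.21 and 0.07 and over all genes between -0.01 and 0.00.

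**Figure D5:**
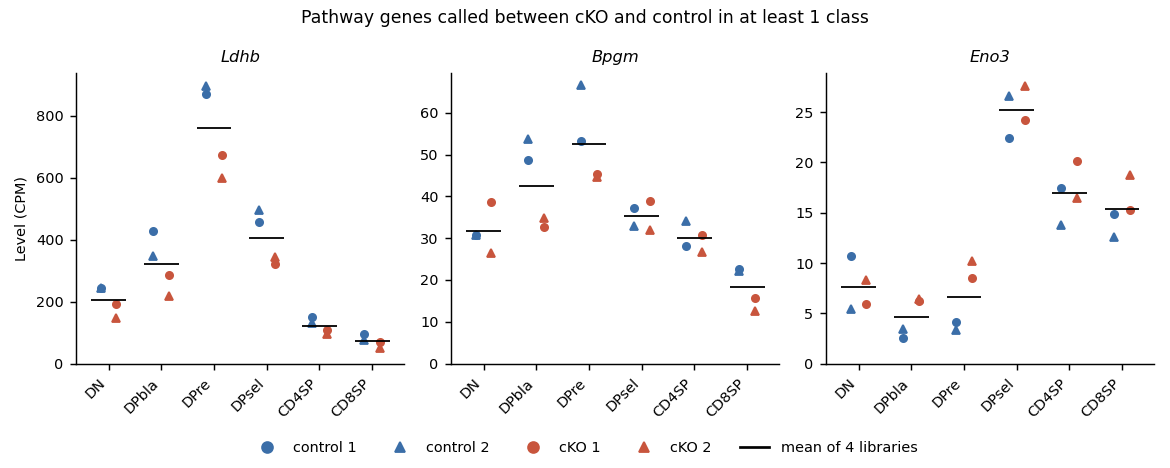
CPM per library of Ldhb, Bpgm and Eno3, the 3 other genes of the pathway called between cKO and control in at least 1 stage, in the 6 stages. Ldhb lies lower in both cKO libraries in all 6 stages, and Eno3 lies higher in both in DPre.

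Ldha was also read as a share of Ldha and Ldhb UMIs, the A chain's part in lactate dehydrogenase transcripts. This share was looked at after the values of Ldhb were known. It was 41.8% and 47.2% in DPbla of the control libraries and 56.7% and 62.4% in those of the cKO libraries, each from at least 3456 UMIs, and 20.2% and 18.7% against 25.0% and 25.5% in DPre. On average the cKO share exceeded that of control by 15.2 percentage points for DN and by 15.04 for DPbla, 5.85 for DPre, 9.05 for DPsel, 5.61 for CD4SP and 4.50 for CD8SP, and cKO was higher in both libraries of all 6 stages. The exact permutation p was 0.333 in each stage, the smallest that 2 against 2 libraries allow. Between stages the share ran from 19.4% on average in DPre of control mice to 84.0% in CD8SP.

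The same 45 genes gave context for the step from cycling to resting DP cells. Of 29 tested, 12 were called higher and 7 lower in DPre, where 37.9% and 35.6% of all genes were, with a median log2 fold change of 0.04 against 0.05 over all genes. Tpi1, which interconverts the products of aldolase, fell by 2.28 (SE 0.10, adjusted p = 4.07e-20). Pdk1 and Pdk2, kinases that hold pyruvate dehydrogenase inactive, rose by 1.43 and 1.55, and Txnip, which restrains glucose uptake, rose by 1.46 (SE 0.08, adjusted p = 1.50e-17). These rises depended on the scale: in UMIs per cell the means in DPbla and DPre were 0.359 and 0.368 for Pdk1, 0.0328 and 0.0372 for Pdk2, and 0.801 and 0.836 for Txnip, with overlapping libraries. Tpi1 was lower in DPre on that scale too, at 0.0659 against 0.837. Pgam2, the muscle form of phosphoglycerate mutase, had 0 UMIs in all 4 DPbla sums and 2 to 4 UMIs in each DPre sum, too few for a fold. Ldhb rose by 0.98, against -0.96 for Ldha, so the 2 chains of the same enzyme moved in opposite directions on this scale. In UMIs per cell both were lower in DPre, Ldhb at a mean of 2.17 against 2.95 in DPbla and Ldha at 0.607 against 3.11.

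Pairs of members and the genes most like them were described by Pearson correlation of log2(CPM + 1) over the 24 sums, which share libraries and depth, so no test was made. Slc2a3 and Pkm had r = 0.92, Pkm and Ldha 0.82 and Gapdh and Pgk1 0.71, while Hk1 and Gapdh had -0.56. Of 8044 genes outside the pathway, those most like Gapdh were Dbi (0.96), Tcp1 (0.95) and Ybx1 (0.95), and those most like Pgk1 were Hmgn1, Uqcrq and Cycs (0.90 to 0.92). Slc2a3 was most like Relb (0.98), Tnfrsf9 and B630019A10Rik, and Aldoa most like Pglyrp2 (0.95), Nfkb2 and Sytl2. Ldha was most like Pdia4 (0.94), Tpm4 and Rgs3, and Pkm most like Retreg1 (0.95), Btla and Gpr146. Pfkp was most like Gsn (0.94), Myl12a and Id3, and Hk1 most like Mrtfa (0.90), Dock11 and Ddit4.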

How the data were processed

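Thymocytes of 2 control and 2 cKO libraries were profiled by 10x Genomics 3′ chemistry. The authors deposited a filtered matrix of UMI counts per gene and cell for each library, made with cellranger 6.1.1 on mm10 per the submitters' processing notes, with no normalization. Cells with at least 200 genes, outside the 2.5% tails of UMI totals and with at most 10% mitochondrial UMIs were kept, and the highest 5% of Scrublet doublet scores (expected rate 8%) were removed. Clusters came from scanpy 1.11.5 and leidenalg 0.10.2 (Python 3.11.15) with counts scaled to 10000 per cell, 3000 variable genes, 30 components, 20 neighbours and resolution 1, after leaving out 56 pathway genes. A cluster of at least 20 cells took the name of the marker list with the highest mean log2 difference from the other clusters (at least 1, with at least 3 detected markers), unless it mixed a non-T list with another or its median UMI total was under its library's median divided by 3.

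Counts were summed per library and stage (at least 30 cells) and tested across all genes with edgeR 4.0.16 (R 4.3.3), quasi-likelihood test, TMM factors, filterByExpr and Benjamini-Hochberg adjustment. Cells were not used as replicates. The labels do not tie the libraries to separate animals by number, so p-values measure the spread between these libraries. Alternatives were DESeq2 1.42.0, its size factors, no filter, the replicate number as a block, each library left out, 5% mitochondrial UMIs, 10% doublets, resolution 1.5, clusters built with the pathway genes, UMIs per cell and control libraries alone. The low-UMI cycling cluster kept in DPbla, the DPbla clusters alone and library totals without TMM factors were chosen after seeing the data. The fits were tested on simulated data with known changes. Gene positions are from the GENCODE annotation of GRCm38, counted from 1. The symbol Aldoa matched 2 gene identifiers, of which the one with 15508 UMIs was used.

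The 10 genes and all lists were chosen with earlier results of these data known. The 10 genes are always named. Of 45 other pathway genes, those called between genotypes and the 5 with the largest change between DPre and DPbla are named. The genes most like a member are the 3 with the highest correlation among those with a mean of at least 10 CPM.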

Additional observations from a re-analysis of the deposited data

Results flagged for a closer look

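Aldoa had opposite signs between stages. Both cKO libraries lay above both controls in DPbla (59.5 and 57.2 against 53.5 and 50.2 CPM) and below them in DPre (90.1 and 80.1 against 96.1 and 91.8 CPM), DPsel, CD4SP and CD8SP. The difference between DPbla and DPre was tested as an interaction and not called (0.33, adjusted p = 0.264, edgeR quasi-likelihood test). Within DPbla both cKO libraries lay above both controls in cluster 8 (45.2 and 49.1 against 44.4 and 42.1 CPM), overlapped with them in cluster 9 and lay below them in cluster 13 (35.4 and 42.1 against 44.1 and 46.2 CPM). Cluster 9, where Aldoa was highest, was a larger share of DPbla in cKO libraries. The log2 fold change of cKO over control in DPbla exceeded that in DPsel by 0.42, that in CD4SP by 0.50 and that in CD8SP by 0.66. Pgk1 had both cKO libraries above both controls in DN (151 and 166 against 112 and 145 CPM) and below them in CD4SP (137 and 133 against 141 and 144 CPM), and its log2 fold changes differed by 0.41. None of the differences from DPsel, CD4SP and CD8SP, nor that of Pgk1, was tested itself, and none of the underlying values passed the test between genotypes without the replicate block.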

How the results depend on the processing

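Without the replicate block 0 of the 10 genes were called between cKO and control by DESeq2 in each stage. It called 1.73% of all genes in DPbla, 1.54% in DPre and 0.177% in DPsel. Leaving out 1 library leaves 1 in its genotype, so calls between genotypes from those fits are not counted here. With no filter on low counts 1 was called in DPre (Pkm), where the share of all genes called rose from 1.94% to 3.09%. Of the stage contrasts, leaving out 1 library gave 3 to 5 calls between CD4SP and DPsel, with 3 without cKO 2, against 6 with all libraries, and called 30.5% to 33.6% of all genes (31.8% without cKO 2) against 38%. In control libraries alone that contrast gave 3 calls (27.6% of all genes), CD8SP against DPsel 1 (35%, against 47.9% with all libraries) and CD8SP against CD4SP 2 (18.1%, against 32.4%). CD8SP against DPsel gave 2 calls with no filter, 1 higher and 1 lower (26.6% of all genes), and 2 at Leiden resolution 1.5 (38.3%), and CD8SP against CD4SP gave 2 at a mitochondrial limit of 5% (20.6%). The cause was not tested, except that control libraries alone are fewer samples and that no filter raised the genes tested from 11151 to 20895.

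In UMIs per cell 10 genes were called between DPre and DPbla, with Aldoa reversed at -1.03, where 91.7% of all genes were called. Between CD8SP and DPsel 9 were called and between CD8SP and CD4SP 10, where 77.7% and 66.1% of all genes were called. Of all calls in these contrasts 95.6% and 98% were higher in CD8SP. The ratio of DPbla to DPre became 2.53 for Slc2a1, 3.19 for Slc2a3, 2.57 for Hk1, 10.7 for Hk2, 2.96 for Pfkp, 2.02 for Aldoa, 7.24 for Gapdh, 5.25 for Pgk1, 3.68 for Pkm and 5.2 for Ldha, since cycling cells held more UMIs. With library totals Gapdh (-0.12), Pgk1 (-0.087) and Pkm (-0.074) reversed between CD8SP and DPsel. At the 5% mitochondrial limit the difference in the share of Hk2 was 1.99 percentage points for DPbla and 1.23 for DPre, but -2.51 for DPsel, -0.36 for CD4SP and -5.50 for CD8SP, and that in the share of Slc2a1 in DPsel was 12.9. That limit left too few cells for DN in control 1, so DN was not run there, nor were shares from under 10 UMIs.

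The study compared pairs of mice, and the share of cells over the mitochondrial limit followed the replicate number, but the labels do not say that equal numbers mark a pair. With 2 numbers the correlation of deviations was 0.08 to 0.23. With the replicate block 2 genes were called in DPbla (Hk2, adjusted p = 0.0388, and Ldha, 0.00961), 3 in DPre (Hk2, 0.0471, Pkm, 0.00224, and Pfkp, 0.00761), 1 in DPsel (Gapdh, 0.0396) and 1 in the interaction (Ldha, 0.0424), by edgeR. The block also raised the share of all genes called, to 9.92% in DPbla, 9.18% in DPre, 2.98% in DPsel and 1.5% in the interaction. In DN, CD4SP and CD8SP it called 0 members, and 1.75%, 1.37% and 0% of all genes. Depth limits Hk2 most, with 0 to 40 UMIs per library and stage. Of the other pathway genes, the Ldhb call was lost at resolution 1.5 in DPbla (-0.55) and DPsel (-0.47), at the 5% mitochondrial limit in DPre (-0.39), and in DPsel also with 10% doublets removed (-0.52) and with library totals (-0.51). Bpgm was lost at resolution 1.5 (-0.48) and at the 5% limit (-0.42), where Eno3 in DPre was lost as well (1.49).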

Other observations

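Cells outside the T lineage gave a comparison of levels in the same libraries. MPS-like cells held a mean of 249 ± 73.7 CPM of Aldoa and 1121 ± 81.9 CPM of Gapdh (SD, n = 4), and B-like cells 182 ± 66.8 CPM and 931 ± 148 CPM. Ldha stood at 268 ± 19.1 CPM in MPS-like and 189 ± 28.7 CPM in B-like cells, Pkm at 255 ± 34.1 and 210 ± 21.6 CPM, and Pfkp at 45.3 ± 9.80 and 35.8 ± 15.3 CPM. Hk1 was at 20.6 ± 6.42 CPM in MPS-like cells, under its mean in each of the 6 T lineage stages, and Hk2 was at 23.3 CPM with a range from 11.4 to 32.9 CPM over the libraries. Slc2a1 was at 7.18 ± 3.13 CPM and Slc2a3 at 8.97 ± 3.79 CPM in MPS-like cells.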
